A study of Mus musculus with 12 samples.

Results

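The 9 genes described here, Mecom, Prdm16, Hlf, Meis1, Erg, Etv6, Gata3, Mllt3 and Ndn, are regulators associated with blood stem cells. They were taken as a list of names, and every probe set that the platform annotation pairs with one of these symbols alone was used, which gave 28 of the 45101 probe sets on the array. The study hybridised 12 Affymetrix Mouse Genome 430 2.0 arrays, 3 in each of 4 groups. FoxO-deficient myeloid progenitors and FoxO-deficient LSK cells came from mice with the Mx-Cre transgene and loxP-flanked FoxO1, FoxO3 and FoxO4 alleles, and wild-type myeloid progenitors and wild-type LSK cells came from mice with the same loxP-flanked alleles and no Mx-Cre. LSK cells lack mature lineage markers, carry Sca-1 and Kit and include the hematopoietic stem cells, and myeloid progenitors are their more restricted descendants. The cells were sorted from pooled mice, and age, sex and the agent used to induce the transgene are not stated. Mx-Cre is driven by an interferon-responsive promoter and is active in other tissues besides blood, and only the deficient groups carried it, so an effect of FoxO loss and one of the transgene cannot be told apart. Whether each array had its own pool of mice is unstated, so p-values measure the spread between arrays, which may be technical.

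Blood stem cells keep a set of DNA-binding factors active that fall silent as progenitors commit to a lineage. Mecom and Prdm16 are zinc finger proteins with a PR domain, Hlf is a leucine zipper factor of the PAR family, Meis1 is a homeodomain partner of Hox and Pbx proteins, Erg and Etv6 belong to the ETS family, and Gata3 is a GATA factor best known from T cells. Mllt3 and Ndn are usually listed with these genes but do not bind DNA by a classical DNA-binding domain: Mllt3 reads histone acylation and works with the elongation machinery and Dot1l, and Ndn is a MAGE family protein linked to growth arrest. FoxO factors are forkhead proteins restrained by insulin and cytokine signals, and their loss is known to deplete mouse hematopoietic stem cells.

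The promoters of all 9 genes are held in the RefSeq promoter windows of build GRCm38.p6, as 13 windows that run from 250 bases before to 50 bases after a transcription start. Because the groups differ in forkhead factors, the windows were searched on both strands for a FoxO motif (GTAAACA), the shorter forkhead core contained in it (TAAACA), an ETS motif (CCGGAAGT) and a GATA motif (AGATAA). The FoxO motif was in 0 of the 13 windows, where 3.65% of all 32851 windows hold it. The forkhead core was in 2 windows, an inner start of Mecom and a start of Erg (13.4% of all windows), the ETS motif in the Meis1 window alone (3.89%), and the GATA motif in the same Erg window alone (11.2%). Such matches describe letters and are not binding sites. The 3 windows are shown because they hold the matches, and because Meis1 and Erg are the genes whose deficient arrays lay on opposite sides of the wild-type arrays in the 2 cell types, as described below. The 250 bases before each start are printed 5′ to 3′ on the gene's own strand, which is the minus strand for all 3, with the matches in capitals. They lie at chr3:30013205-30013454 (Mecom), chr11:19018970-19019219 (Meis1) and chr16:95459349-95459598 (Erg).
Mecom: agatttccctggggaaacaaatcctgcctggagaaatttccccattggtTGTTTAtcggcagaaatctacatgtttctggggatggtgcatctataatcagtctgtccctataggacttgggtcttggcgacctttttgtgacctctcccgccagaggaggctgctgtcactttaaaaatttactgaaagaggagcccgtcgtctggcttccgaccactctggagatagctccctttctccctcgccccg
Meis1: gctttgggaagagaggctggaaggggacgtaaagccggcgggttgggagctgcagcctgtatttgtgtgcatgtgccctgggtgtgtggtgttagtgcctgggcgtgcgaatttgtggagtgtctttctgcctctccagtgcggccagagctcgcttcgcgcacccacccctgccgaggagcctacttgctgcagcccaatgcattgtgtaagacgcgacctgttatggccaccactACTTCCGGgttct
Erg: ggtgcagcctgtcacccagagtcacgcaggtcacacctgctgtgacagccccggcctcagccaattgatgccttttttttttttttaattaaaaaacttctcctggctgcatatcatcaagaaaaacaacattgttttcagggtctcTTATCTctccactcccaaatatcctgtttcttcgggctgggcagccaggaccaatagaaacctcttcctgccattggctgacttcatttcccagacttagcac
In Mecom the capitals are the forkhead core on the opposite strand, with its first printed base at position -201 from the start. In Meis1 they are the ETS motif on the opposite strand, at -13. In Erg they are the GATA motif on the opposite strand, at -103, and the forkhead core of Erg lies after the start, at 14, so it is not in the printed bases. Among 73 pairs of windows from different genes, the longest run of identical bases was 24 bases, between the outer Mecom start and Prdm16, in the 50 bases after each start, and the next longest was 14 bases.

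Wild-type LSK array 2 stood apart from the other 11 arrays in its control probe sets. Those of Gapdh read 344 times higher at the 3′ end of the transcript than at the 5′ end on this array, against 1.77 to 2.37 times on the others, and those of Actb read 145 times higher, against 2.74 to 3.36 times. The LSK FoxO effects of the 9 genes are therefore given with and without it, the latter from a new fit to 11 arrays. The mean deposited intensity was 119 to 190.2 per array. Among the targeted genes, Foxo4 fell to 59.9 in FoxO-deficient myeloid progenitors, against 329.8 in wild-type (adjusted p = 2.80e-04), and to 85.8 in FoxO-deficient LSK cells, against 393.4 in wild-type (adjusted p = 0.00447, and 0.00472 without array 2). Foxo1 averaged 12.5 and 23.4 in deficient and wild-type myeloid progenitors and 27.2 and 104.3 in deficient and wild-type LSK cells. Foxo3 averaged 2414 and 1860 in deficient and wild-type myeloid progenitors and 2828 and 2421 in deficient and wild-type LSK cells, and none of these 4 differences passed the test (adjusted p = 0.304 to 0.623). Which part of each gene was deleted is unstated, and a probe outside it does not report the deletion. LSK and stem cell surface markers, of which 7 of 9 had a probe set, summed to 1442 to 1559 and 1280 to 1413 in deficient and wild-type myeloid progenitors, and to 2991 to 3286 and 2570 to 3428 in deficient and wild-type LSK cells. No probe set is paired with Ly6a, the gene of Sca-1, alone.

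All intensities below were quantile normalized, and a group's level is its mean log2 value over 3 arrays turned back to the linear scale. A log2 change is given with its standard error from a limma fit to 31779 probe sets that passed a filter on dim signals, and a probe set was called at a Benjamini-Hochberg adjusted p under 0.05. Of the 28 probe sets 24 passed the filter, with at least 1 for each of the 9 genes, and the 4 that did not belong to Mecom and Ndn. A background limit, the highest of 27 bacterial control probe sets, lay between 5.14 and 13.0 on the arrays. Each gene is followed on its brightest probe set, and the others are named where they differ. In sorted populations, fewer cells of a type and less RNA per cell cannot be told apart.

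**Figure D1:**
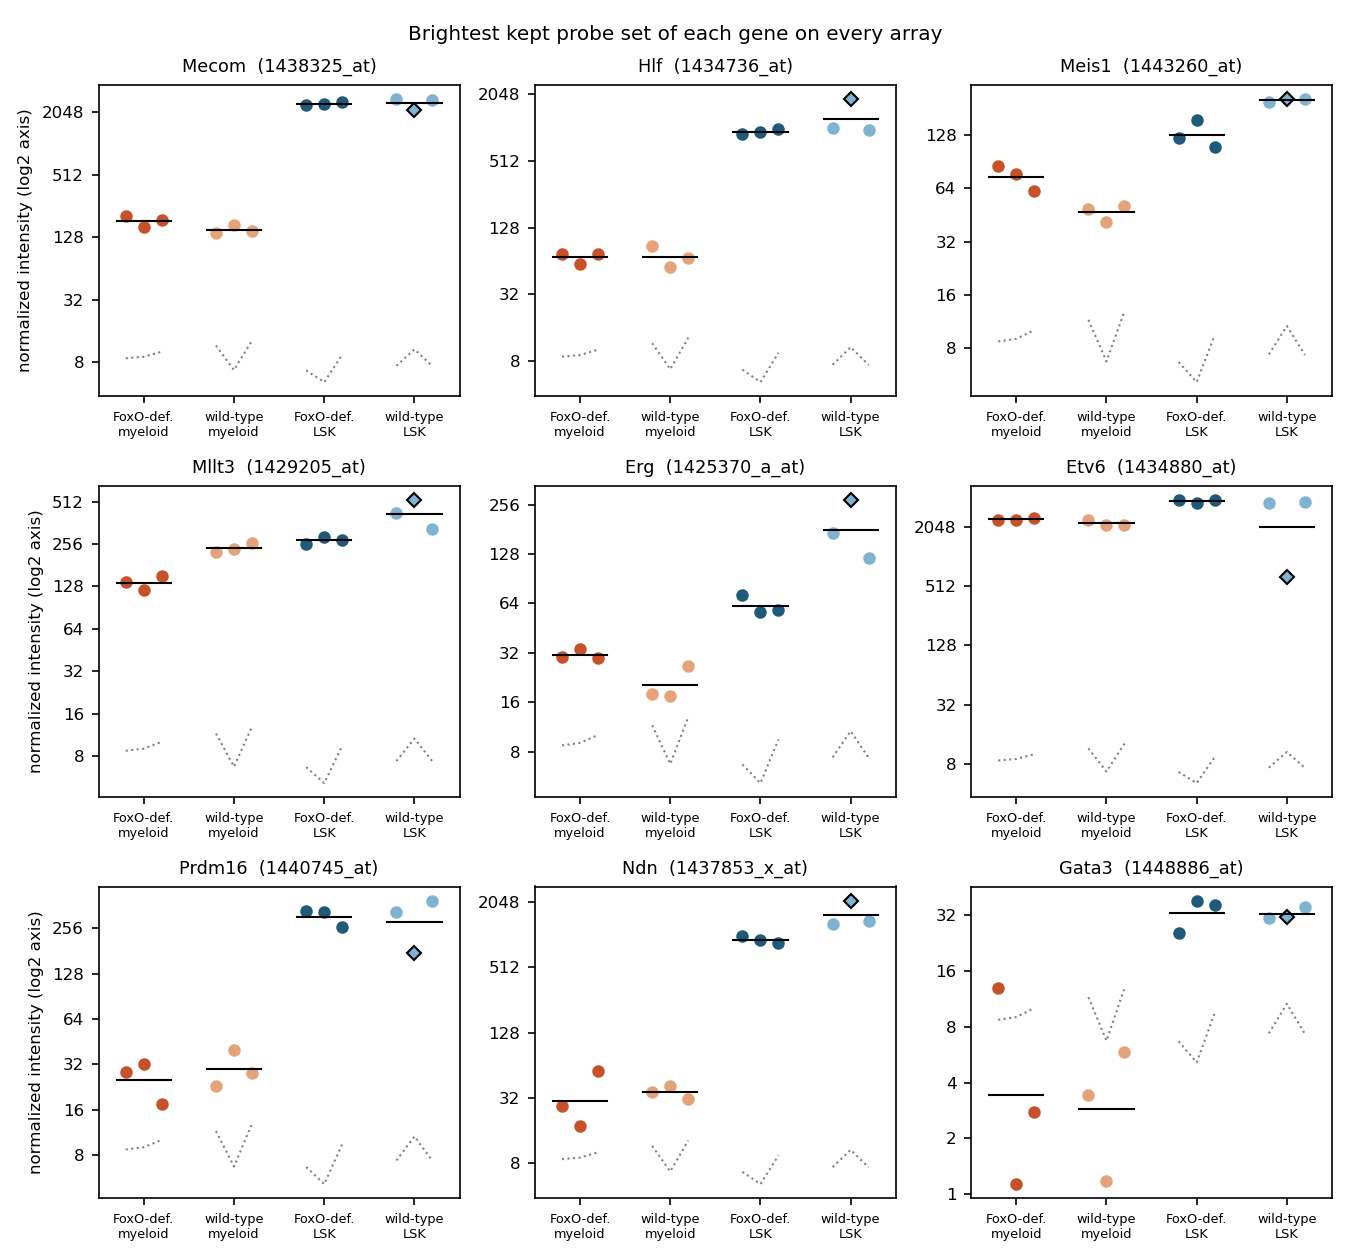
Normalized intensity of the brightest probe set of each of the 9 genes on all 12 arrays (log2 axis), with the groups in the order FoxO-deficient and wild-type myeloid progenitors, then FoxO-deficient and wild-type LSK cells. Points are arrays, bars are group means of the log2 values, the black-edged diamond is wild-type LSK array 2, and dotted lines are the background limits of the arrays. In 8 genes every wild-type myeloid progenitor array lies below every wild-type LSK array, and in Etv6 array 2 lies below the myeloid progenitors.

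These genes differed mainly between the cell types. In wild-type cells, 8 of the 9 genes were lower in myeloid progenitors than in LSK cells by the test on their brightest probe sets. These ran from 1.74-fold for Mllt3 to 42.8-fold for Ndn, and Etv6 was not called. Counted over probe sets, 16 of 24 were called lower and 0 higher, where 7.59% of all tested probe sets were called lower and 14.5% in either direction. The median log2 difference was -2.93 over the 24 probe sets and 0.06 over all tested. Every wild-type myeloid progenitor array lay below every wild-type LSK array in 17 of the 24 (14.4% of all tested), and the same held in 21 of the 24 for the deficient pair (21.3% of all tested). In FoxO-deficient cells 7 genes and 15 probe sets were called lower and 0 higher (7.82% of all tested probe sets lower, 14.6% in either direction), with a median of -2.15. Without array 2 all 9 genes and 21 of the 24 probe sets were called lower in the wild-type comparison, and likewise 9 genes and 21 probe sets in the FoxO-deficient one (11.5% and 14% of all tested).

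Mecom, a zinc finger regulator of stem cell self-renewal also known as Evi1, read 207, 161 and 189 in FoxO-deficient myeloid progenitors and 140, 168 and 148 in wild-type myeloid progenitors. It read 2405, 2458 and 2587 in FoxO-deficient LSK cells and 2779, 2172 and 2703 in wild-type LSK cells. The cell types were far apart and the genotypes overlapped within each cell type. In LSK cells the overlap rested on array 2, without which the deficient arrays lay below the remaining wild-type ones. Mecom was 16.7-fold lower in wild-type myeloid progenitors than in wild-type LSK cells (log2 difference -4.07 ± 0.18, adjusted p = 2.88e-06) and 13.46-fold lower in the deficient pair (-3.75 ± 0.18, adjusted p = 1.74e-06). Its FoxO effect in LSK cells was -0.03 ± 0.18 (adjusted p = 0.953), with a 95% interval from -0.43 to 0.37, or -0.14 ± 0.14 without array 2 (adjusted p = 0.735), and in myeloid progenitors 0.28 ± 0.18 (adjusted p = 0.614). Its other 2 probe sets did not pass the filter, with group levels of 7.80 or less.

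Prdm16, a relative of Mecom that is needed to maintain stem cells in mice, read 28.7, 32.4 and 17.4 in FoxO-deficient myeloid progenitors and 23.2, 40.2 and 28.1 in wild-type myeloid progenitors. It read 332, 327 and 262 in FoxO-deficient LSK cells and 330, 176 and 391 in wild-type LSK cells. Array 2 gave the lowest wild-type LSK value, and the LSK genotypes overlapped with and without it. The wild-type cell type difference was 9.54-fold (-3.25 ± 0.36, adjusted p = 3.52e-04) and the deficient one 12.1-fold (-3.59 ± 0.36, adjusted p = 1.43e-04). The LSK FoxO effect was 0.11 ± 0.36 (adjusted p = 0.919) and turned to -0.23 ± 0.31 without array 2 (adjusted p = 0.817). The second bright probe set, 1440870_at, depended more on that array: it read 272, 286 and 233 in FoxO-deficient LSK cells and 474, 166 and 454 in wild-type LSK cells, so that its LSK effect was -0.33 ± 0.44 with all arrays and -0.81 ± 0.35 without array 2 (adjusted p = 0.791 and 0.368). Without array 2 the deficient arrays of 1440870_at lay below the remaining wild-type arrays, while those of the brighter probe set overlapped them. The 2 dim Prdm16 probe sets lay near background, with group levels of 3.67 to 14.9.

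Hlf, a factor whose reporter activity marks stem cells in mice, read 74.7, 60.3 and 74.2 in FoxO-deficient myeloid progenitors and 86.6, 56.0 and 67.7 in wild-type myeloid progenitors. It read 889, 939 and 992 in FoxO-deficient LSK cells and 1022, 1872 and 970.2 in wild-type LSK cells. Array 2 was the high one here, and the other wild-type LSK arrays lay within or just above the range of the deficient ones. Hlf was 17.8-fold lower in wild-type myeloid progenitors than in wild-type LSK cells (-4.15 ± 0.27, adjusted p = 2.56e-05) and 13.53-fold lower in the deficient pair (-3.76 ± 0.27, adjusted p = 2.31e-05). Its LSK FoxO effect was -0.39 ± 0.27 (adjusted p = 0.613) and -0.08 ± 0.19 without array 2 (adjusted p = 0.905), and its myeloid progenitor effect was 0.01 ± 0.27 (adjusted p = 0.998). The second probe set, 1434735_at, averaged 15.2 and 15.7 in deficient and wild-type myeloid progenitors and 164 and 184 in deficient and wild-type LSK cells, with 11.7-fold for the wild-type cell type difference (adjusted p = 4.34e-05). Its LSK FoxO effect was -0.17 ± 0.26 with all arrays and -0.38 ± 0.24 without array 2 (adjusted p = 0.820 and 0.545). Without array 2 the deficient LSK arrays of 1434735_at lay below the remaining wild-type ones, by little.

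Gata3, which in stem cells has been linked to cycling and in lymphoid cells to T cell development, was dim. It read 13.0, 1.13 and 2.78 in FoxO-deficient myeloid progenitors and 3.45, 1.17 and 5.87 in wild-type myeloid progenitors, against background limits of 6.73 to 13.0 on the same arrays. It read 25.7, 38.5 and 36.7 in FoxO-deficient LSK cells and 30.9, 31.2 and 35.3 in wild-type LSK cells. The LSK arrays all lay above background and the genotypes overlapped, whereas 1 of the 6 myeloid progenitor arrays exceeded its limit. Gata3 was at least 3.23-fold lower in wild-type myeloid progenitors than in wild-type LSK cells (adjusted p = 0.0183, and 0.0635 without wild-type myeloid progenitor array 8), a bound that sets the LSK level against the background limits. The deficient pair was also called lower (adjusted p = 0.0231), without a fold because 1 array of the dim group was above its limit, and that call was lost without any 1 of arrays 4, 5, 6, 11 or 12 (adjusted p up to 0.0741) and with only the groups compared (adjusted p = 0.0512). The LSK FoxO effect was 0.03 ± 0.81 (adjusted p = 0.991), a standard error that leaves changes of over 2-fold either way within the interval (-1.77 to 1.83), and without array 2 it was 4.11e-04 ± 0.97 (adjusted p = 0.9999). The 6 of 8 T and innate lymphoid cell markers with a probe set summed to 20.1 to 33.1 and 20.5 to 45.7 in deficient and wild-type myeloid progenitors and to 27.4 to 50.4 and 32.8 to 42.3 in deficient and wild-type LSK cells, with at most 3 of them above background on any array, and Cd3d, part of the T cell receptor complex, was at background on all 3 arrays in 3 of the groups.

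Etv6, a transcriptional repressor needed for stem cell survival in adult mouse marrow, read 2411, 2399 and 2508 in FoxO-deficient myeloid progenitors and 2390, 2134 and 2100 in wild-type myeloid progenitors. It read 3836, 3517 and 3813 in FoxO-deficient LSK cells and 3525, 635 and 3623 in wild-type LSK cells. The wild-type LSK mean of 2009 rested on array 2, and without it the level was 3574, inside the range of the deficient arrays. With all arrays the LSK FoxO effect was 0.89 ± 0.55 (adjusted p = 0.574), and without array 2 it was 0.06 ± 0.11 (adjusted p = 0.890). The wild-type cell type difference likewise read 0.13 ± 0.55 with all arrays (adjusted p = 0.904), and Etv6 was called lower in wild-type myeloid progenitors without array 2 (-0.69 ± 0.11, adjusted p = 0.00258). The deficient pair, which does not contain array 2, differed by -0.61 ± 0.55, with adjusted p = 0.526 with all 12 arrays and 0.00223 without array 2, since the spread of the 4 groups is estimated jointly. In myeloid progenitors all 3 deficient arrays lay just above the wild-type ones, and the effect was 0.15 ± 0.55 (adjusted p = 0.976). On the second probe set, 1423401_at, the wild-type cell type difference was -0.67 ± 0.26 with all arrays and not called (adjusted p = 0.122). Without array 2 it was called lower (-0.96 ± 0.18, adjusted p = 0.00636).

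**Figure D2:**
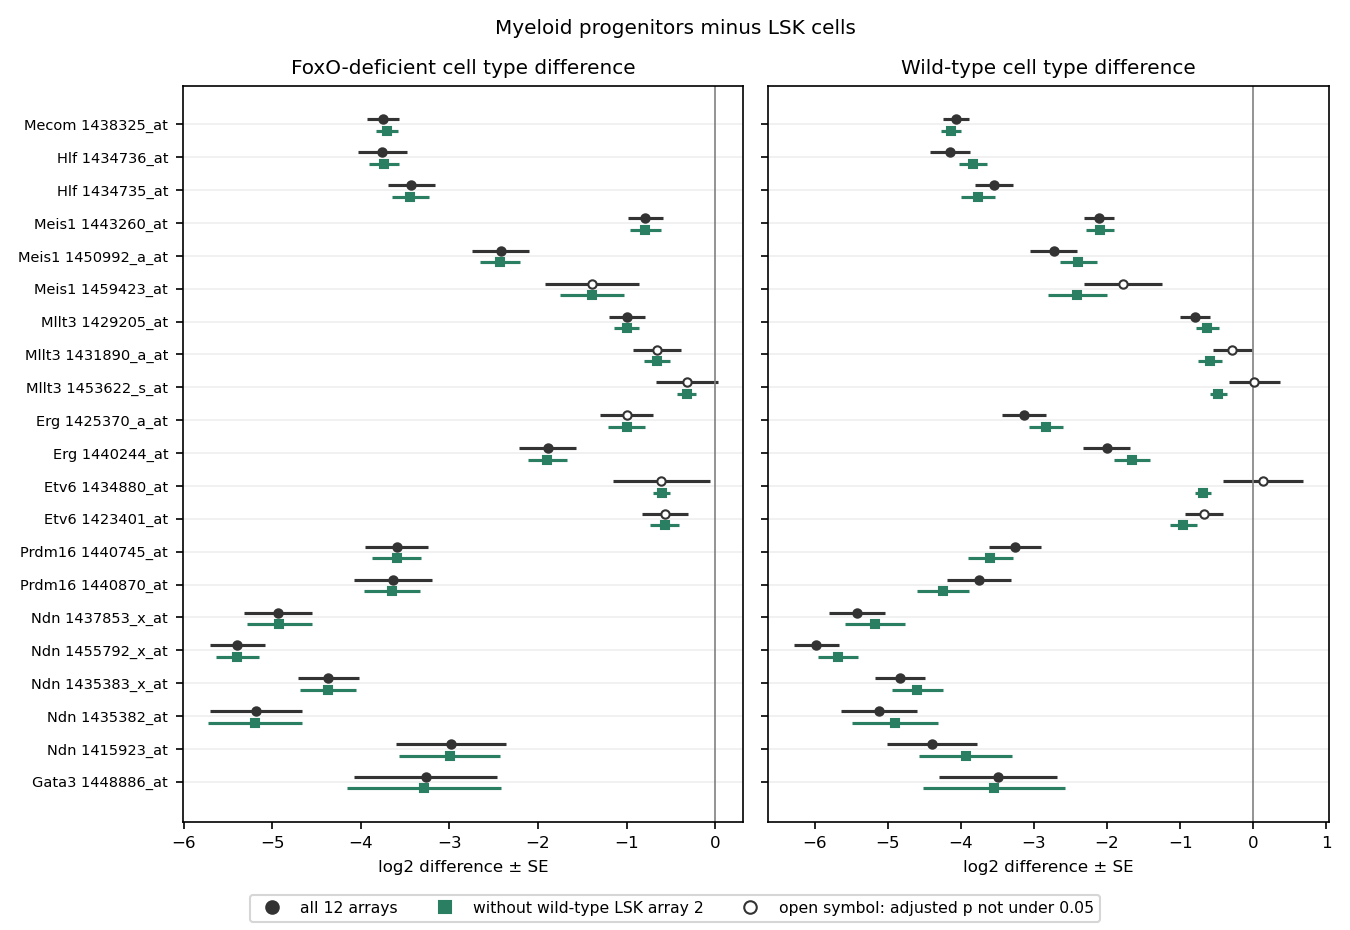
Log2 difference between myeloid progenitors and LSK cells (± standard error) for the 21 probe sets that were above background on all 3 arrays of at least 1 group, in FoxO-deficient cells (left) and wild-type cells (right). Circles are the fit to all 12 arrays and squares the fit without wild-type LSK array 2, filled where the adjusted p was under 0.05. In the fit to all 12 arrays the brightest probe sets of Ndn, Hlf and Mecom lie furthest below 0 in both genotypes and that of Etv6 nearest to it, while without array 2 the wild-type difference is -0.63 for Mllt3 and -0.69 for Etv6.

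Whether FoxO deficiency changed these genes was asked in each cell type. In LSK cells 0 of the 24 probe sets were called (0.148% of all tested), and 5 had an unadjusted p under 0.05, all lower in deficient cells, where 10.5% of all tested probe sets had such a p. In 7 of the 24 every deficient array lay below every wild-type array and in 0 above (7.57% and 8.63% of all tested), namely 1 probe set each of Erg, Meis1 and Mllt3 and 4 of Ndn. The median log2 change was -0.36 over the 24 probe sets and 0.01 over all tested. In myeloid progenitors 0 of the 24 were called (1.46% of all tested), 2 had an unadjusted p under 0.05 (12.2% of all tested), and the median was -0.02, against 0.02 over all tested. There 3 probe sets, all of Mllt3, lay wholly lower (13.3% of all tested) and 3 wholly higher (15% of all tested), 1 each of Meis1, Erg and Etv6. The 2 FoxO effects share no arrays. Without array 2, 1 of 24 was called in LSK cells and 2 in myeloid progenitors, all of them Mllt3 (0.512% and 6.23% of all tested).

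**Figure D3:**
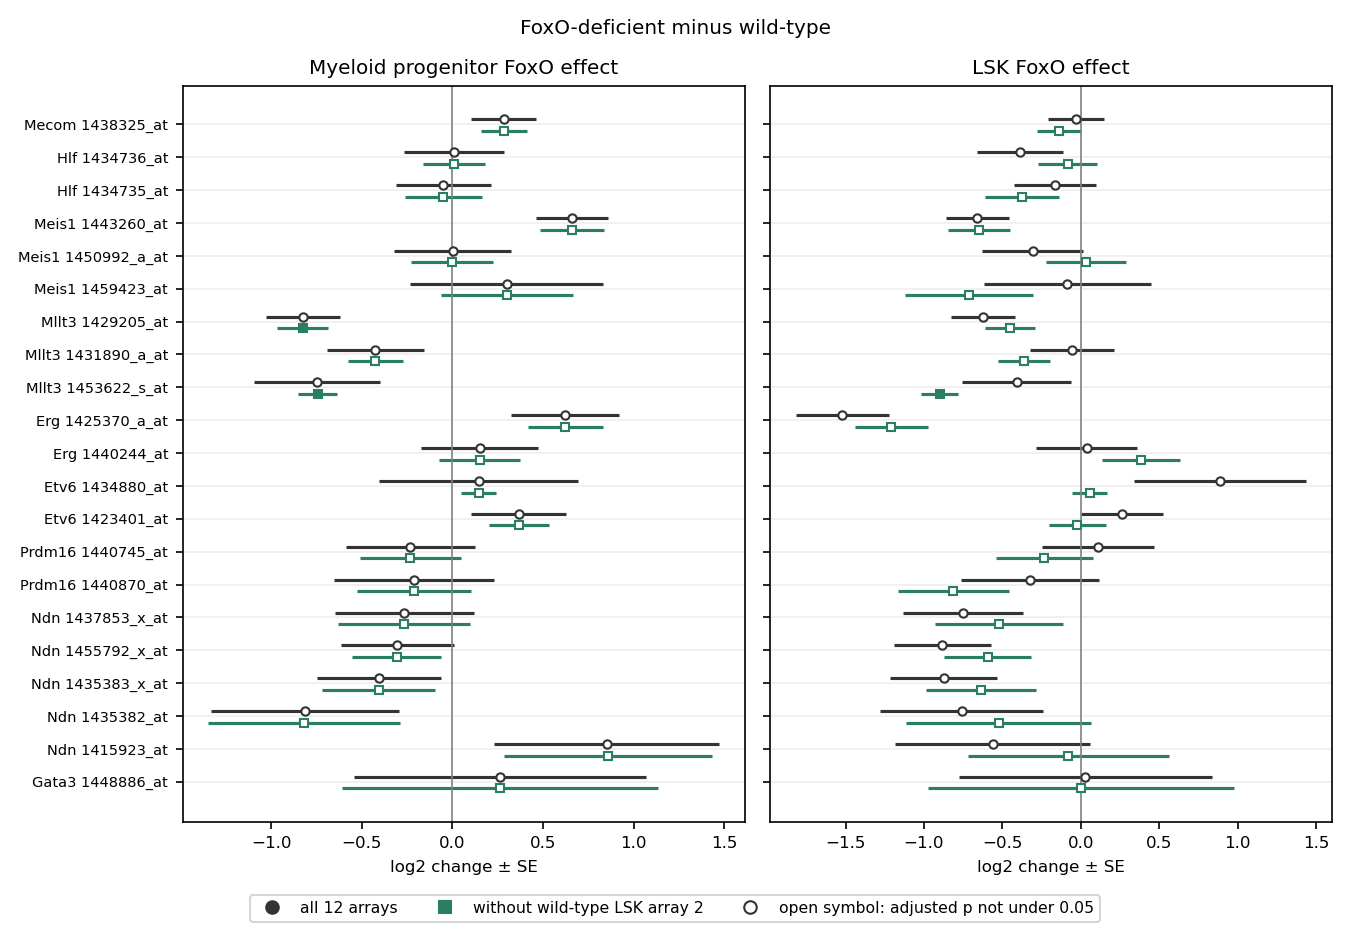
Log2 change with FoxO deficiency (± standard error) in myeloid progenitors (left) and LSK cells (right) for the same 21 probe sets. Circles are the fit to all 12 arrays, in which no probe set passed the test, and squares the fit without wild-type LSK array 2, where filled squares passed it. Erg 1425370_a_at and Meis1 1443260_at lie right of 0 in myeloid progenitors and left of it in LSK cells, the Mllt3 probe sets lie left of 0 in both, and Etv6 1434880_at shifts by most of its value when array 2 is left out.

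Mllt3, which recruits elongation factors to chromatin and supports self-renewal of human stem cells, had lower values in both deficient cell types, with no call in the fit to all arrays. It read 137, 122 and 151 in FoxO-deficient myeloid progenitors and 226, 238 and 260 in wild-type myeloid progenitors. It read 257, 288 and 272 in FoxO-deficient LSK cells and 426, 529 and 326 in wild-type LSK cells. All deficient arrays lay below all wild-type arrays of their cell type. In myeloid progenitors the change was -0.82 ± 0.20 and missed the threshold with all arrays (adjusted p = 0.0949), and it was called without array 2 (-0.83 ± 0.14, adjusted p = 0.0127). In LSK cells the change was -0.62 ± 0.20 (adjusted p = 0.349), and -0.45 ± 0.16 without array 2 (adjusted p = 0.257). The 2 effects differed by 0.20 ± 0.29 (adjusted p = 0.854).

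A second Mllt3 probe set, 1453622_s_at, whose suffix marks probes that can match more than 1 transcript, read 78.3, 67.3 and 75.6 in FoxO-deficient myeloid progenitors and 128, 124 and 119 in wild-type myeloid progenitors. It read 85.7, 94.2 and 96.3 in FoxO-deficient LSK cells and 178, 61.8 and 166 in wild-type LSK cells. Only array 2 among the wild-type arrays fell below the deficient ones. With all arrays the changes were -0.74 ± 0.35 in myeloid progenitors and -0.41 ± 0.35 in LSK cells (adjusted p = 0.433 and 0.667). Without array 2 this probe set was called lower in both, at -0.74 ± 0.11 and -0.90 ± 0.12 (adjusted p = 0.00605 and 0.0249). The third probe set, 1431890_a_at, averaged 82.8 and 111 in deficient and wild-type myeloid progenitors and 131 and 136 in deficient and wild-type LSK cells, with no call in either fit (adjusted p = 0.610 and 0.943 with all arrays). Its LSK genotypes overlapped only through array 2, without which the deficient arrays lay below the remaining wild-type ones. Between the cell types Mllt3 was 1.74-fold lower in wild-type myeloid progenitors than in wild-type LSK cells (-0.80 ± 0.20, adjusted p = 0.0284), a call lost without any 1 of arrays 1, 7, 8 or 9 (adjusted p up to 0.0892), under scaling in place of quantile normalization (adjusted p = 0.0836), with no filter on dim signals (adjusted p = 0.0707) and with only the groups compared (adjusted p = 0.192). That call was on the brightest probe set. With all arrays the same difference was 0.01 ± 0.35 for 1453622_s_at and -0.29 ± 0.27 for 1431890_a_at, not called (adjusted p = 0.986 and 0.525). Without array 2 both were called lower, at -0.48 ± 0.12 and -0.59 ± 0.17 (adjusted p = 0.0191 and 0.0325). In the deficient pair the brightest probe set, with 136 in myeloid progenitors and 272 in LSK cells, was called lower (adjusted p = 0.00940). The others were not called there with all arrays (adjusted p = 0.608 and 0.135).

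Ndn, a MAGE protein known for restraining proliferation of stem cells in mice, has 8 probe sets, 6 of which passed the filter and 5 of which gave signal well above background in LSK cells. The brightest read 27.0, 17.7 and 57.2 in FoxO-deficient myeloid progenitors and 36.5, 41.4 and 31.3 in wild-type myeloid progenitors. It read 999, 909 and 857 in FoxO-deficient LSK cells and 1293, 2111 and 1360 in wild-type LSK cells. The deficient LSK arrays lay below all wild-type LSK arrays, array 2 being the highest, while the myeloid progenitor genotypes overlapped. The LSK change was -0.75 ± 0.38 (adjusted p = 0.523), and -0.52 ± 0.41 without array 2 (adjusted p = 0.646). The next 3 probe sets gave -0.88 ± 0.31, -0.87 ± 0.34 and -0.76 ± 0.52 (adjusted p = 0.384 to 0.604), and -0.59, -0.64 and -0.52 without array 2. The fifth, 1415923_at, overlapped between the LSK genotypes, with a change of -0.56 ± 0.62 (adjusted p = 0.741) that was -0.08 ± 0.64 without array 2 (adjusted p = 0.977). They are measurements of 1 transcript in the same RNA and no replicates of each other, and the x in the suffix of 3 of the first 4 marks probes that may match other sequences.

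Ndn also had the widest gap between cell types among the 9 brightest probe sets. It was 42.8-fold lower in wild-type myeloid progenitors than in wild-type LSK cells (-5.42 ± 0.38, adjusted p = 3.57e-05) and 30.5-fold lower in the deficient pair (-4.93 ± 0.38, adjusted p = 3.25e-05). The second probe set, 1455792_x_at, averaged 15.9 and 19.6 in deficient and wild-type myeloid progenitors and 669 and 1233 in deficient and wild-type LSK cells, which is 62.9-fold in the wild-type comparison (adjusted p = 6.08e-06). The fifth, 1415923_at, was at background on every myeloid progenitor array and was at least 6.14-fold lower there than in LSK cells of the wild-type (adjusted p = 0.00149).

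Erg, an ETS factor required to maintain adult mouse stem cells, is represented by 2 probe sets that gave different accounts. The brighter, 1425370_a_at, read 30.3, 33.5 and 29.6 in FoxO-deficient myeloid progenitors and 17.98, 17.4 and 26.6 in wild-type myeloid progenitors, against background limits of 6.73 to 13.0. It read 72.3, 56.6 and 58.5 in FoxO-deficient LSK cells and 171, 274 and 121 in wild-type LSK cells. The deficient arrays lay wholly above the wild-type ones in myeloid progenitors and wholly below them in LSK cells. In LSK cells the mean was 62.1 in FoxO-deficient and 178 in wild-type cells, a log2 change of -1.52 ± 0.30 that was not called (adjusted p = 0.133), and the change was -1.21 ± 0.23 without array 2 (adjusted p = 0.0760). With an offset of 32 before the logarithm, which damps dim signals, this change was -1.17 and was called (adjusted p = 0.0200). In myeloid progenitors the change was 0.62 ± 0.30 (adjusted p = 0.451).

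The other Erg probe set, 1440244_at, read 28.9, 31.9 and 19.0 in FoxO-deficient myeloid progenitors and 24.4, 28.3 and 18.5 in wild-type myeloid progenitors. It read 99.5, 102 and 87.9 in FoxO-deficient LSK cells and 76.1, 151 and 71.5 in wild-type LSK cells. With all arrays its genotypes overlapped in both cell types. Its changes were 0.15 ± 0.32 in myeloid progenitors and 0.04 ± 0.32 in LSK cells (adjusted p = 0.944 and 0.969), the latter 0.38 ± 0.25 without array 2 (adjusted p = 0.565). The LSK overlap rested on array 2. Without it the deficient LSK arrays lay above the remaining wild-type ones, the side opposite to that of the brighter probe set, with no call. The log2 ratio of the brighter to the other probe set on the same array ran from -0.84 to -0.46 in FoxO-deficient LSK cells and from 0.75 to 1.17 in wild-type LSK cells. The genotypes did not overlap in this ratio and differed by -1.56, with p = 0.1 in a two-sided exact permutation test, the smallest value that 3 against 3 arrays allow. Because the brighter probe set already separated the LSK genotypes and the other did not, this ratio and its test give no independent support. In myeloid progenitors the ratio ran from 0.07 to 0.64 in FoxO-deficient and from -0.70 to 0.52 in wild-type cells, which overlapped (difference 0.47, exact permutation p = 0.3). Which parts of the Erg transcripts the 2 probe sets read is unstated. Both probe sets were lower in wild-type myeloid progenitors than in wild-type LSK cells, by 8.80-fold and 4.00-fold (adjusted p = 1.63e-04 and 0.00306, the second 0.0504 with only the groups compared). In the deficient pair the brighter averaged 31.1 in myeloid progenitors and 62.1 in LSK cells without a call (adjusted p = 0.0511, and 0.00723 without array 2), and the other was called lower, by 3.70-fold (adjusted p = 0.00363).

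Meis1, which with Pbx and Hox proteins keeps stem cells in an undifferentiated state, read 85.7, 76.9 and 61.6 in FoxO-deficient myeloid progenitors and 49.2, 41.4 and 50.7 in wild-type myeloid progenitors on its brightest probe set, 1443260_at. It read 123, 155 and 110 in FoxO-deficient LSK cells and 198, 206 and 204 in wild-type LSK cells. The 3 wild-type LSK arrays lay close together, array 2 included, and the deficient arrays were wholly lower in LSK cells and wholly higher in myeloid progenitors. The change was 0.66 ± 0.20 in myeloid progenitors and -0.66 ± 0.20 in LSK cells (adjusted p = 0.179 and 0.307), and neither was called without array 2 (adjusted p = 0.0658 and 0.196). The gap between the cell types was 1.73-fold in the deficient pair (-0.79 ± 0.20, adjusted p = 0.0254, a call lost without any 1 of arrays 4, 5, 11 or 12, adjusted p up to 0.0968, or with no filter on dim signals, adjusted p = 0.0660) and 4.31-fold in the wild-type pair (-2.11 ± 0.20, adjusted p = 1.59e-04). The test that sets these gaps against each other is that of the difference between the FoxO effects, given below.

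With all arrays, the genotypes overlapped in both cell types on the other 2 Meis1 probe sets. The probe set 1450992_a_at read 18.9, 31.1 and 18.7 in FoxO-deficient myeloid progenitors and 17.98, 22.9 and 26.6 in wild-type ones, then 108, 118 and 132 in FoxO-deficient LSK cells and 116, 235 and 116 in wild-type LSK cells. The high wild-type LSK value was array 2, and the LSK change was -0.31 ± 0.32 with all arrays and 0.03 ± 0.25 without it (adjusted p = 0.726 and 0.976). The myeloid progenitor change of 1450992_a_at was 5.5e-04 ± 0.32 with all arrays (adjusted p = 0.9996), so it did not show the opposite changes of the brightest probe set. The probe set 1459423_at read 16.9, 39.3 and 40.96 in FoxO-deficient myeloid progenitors and 19.8, 33.2 and 22.3 in wild-type ones, a change of 0.30 ± 0.53 (adjusted p = 0.926). It read 97.9, 62.9 and 79.6 in FoxO-deficient LSK cells and 138, 35.1 and 121 in wild-type LSK cells, with array 2 the lowest, and its LSK change was -0.09 ± 0.53 with all arrays and -0.71 ± 0.41 without it (adjusted p = 0.956 and 0.502). Without array 2 the deficient LSK arrays of 1459423_at lay below the remaining wild-type ones, so that both of its changes had the signs of the brightest probe set, with wider errors and no call, and its myeloid progenitor genotypes still overlapped.

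**Figure D4:**
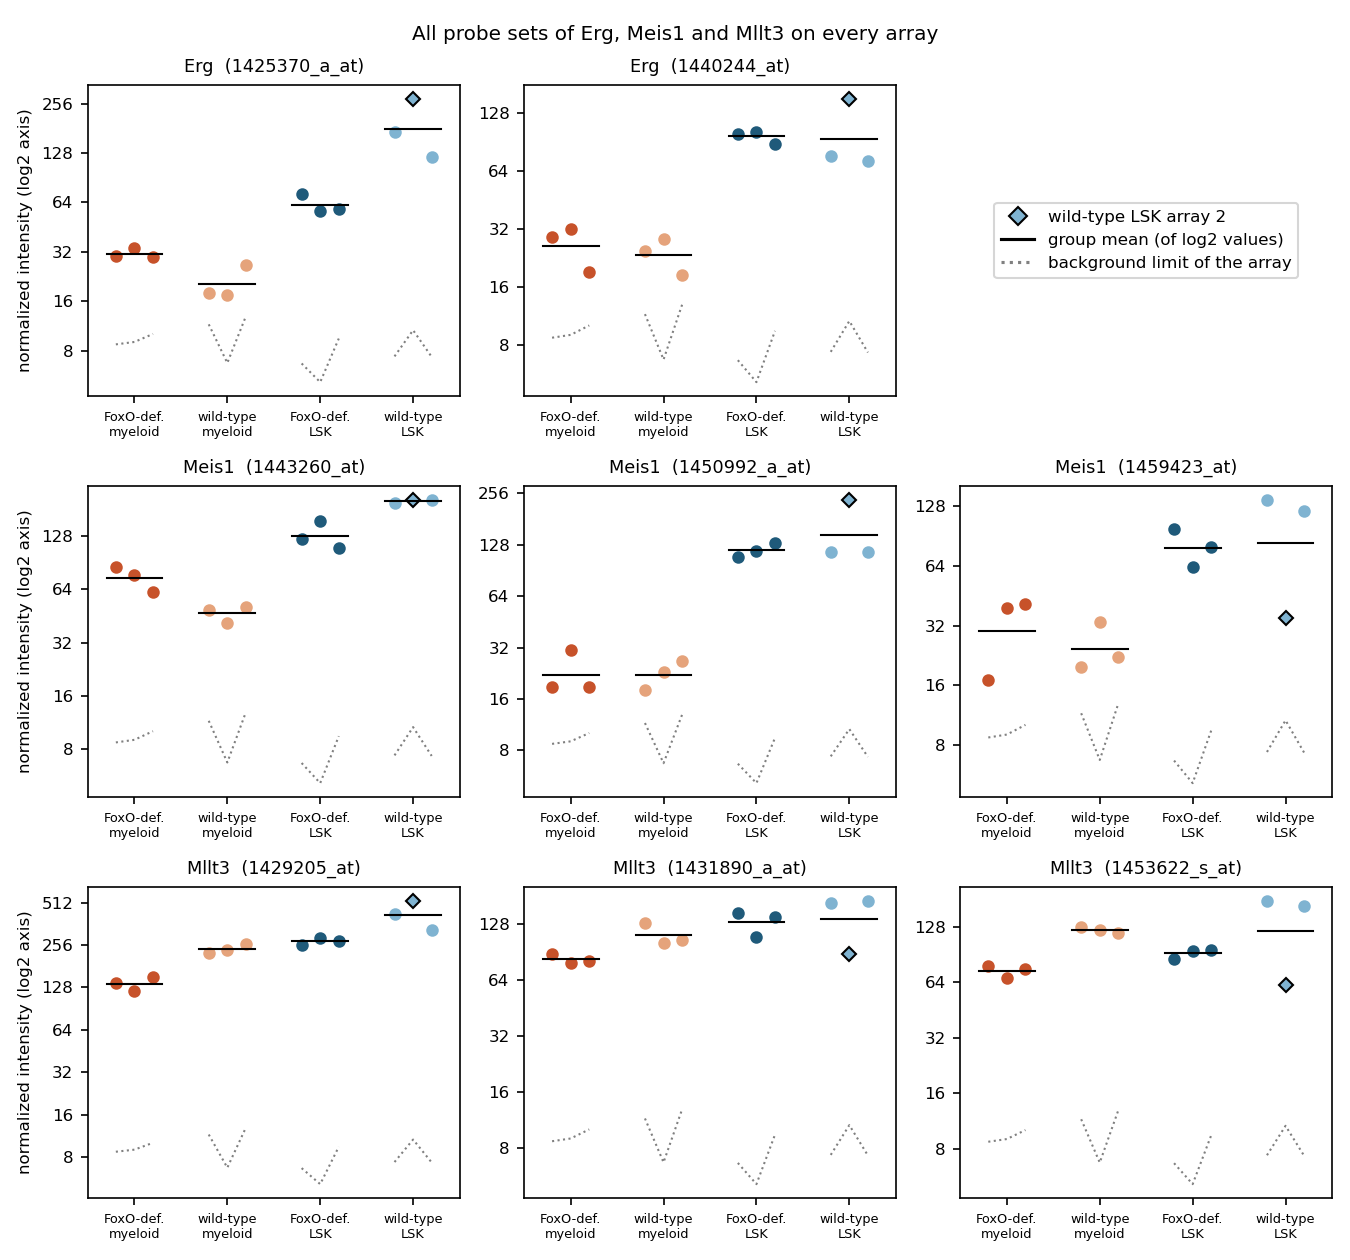
Normalized intensity (log2 axis) of all probe sets of Erg (top), Meis1 (middle) and Mllt3 (bottom) on each array, with groups, symbols and lines as in the plot of the 9 genes. The first Erg panel and the first Meis1 panel show deficient arrays above wild-type in myeloid progenitors and below wild-type in LSK cells, while in the other panels of these genes the genotypes overlap in both cell types when array 2 is included, and the deficient myeloid progenitor arrays lie below the wild-type ones in all 3 Mllt3 panels.

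The difference between the 2 FoxO effects was tested directly. It was -2.14 ± 0.42 for Erg 1425370_a_at and -1.32 ± 0.28 for Meis1 1443260_at, LSK effect minus myeloid progenitor effect, and neither was called with all arrays (adjusted p = 0.0663 and 0.0875). In the 24 probe sets 0 were called, where 0.588% of all tested were, and 2 had an unadjusted p under 0.05 (10.5% of all tested). Without array 2 both were called (-1.83 ± 0.31 and -1.31 ± 0.26, adjusted p = 0.0239 and 0.0449), among 2.19% of all tested. An opposite, wholly separated pattern, lower in deficient LSK cells and higher in deficient myeloid progenitors, was held by 321 of the 31779 probe sets (1.01%), these 2 among them. The reverse pattern was held by 410 (1.29%), with 0 of the 24 among them.

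The summed cell type markers of the groups also differed with genotype. Granulocyte-monocyte progenitor markers, of which 7 of 8 had a probe set, summed to 18030 to 18660 in FoxO-deficient and 14750 to 15140 in wild-type myeloid progenitors, and to 4292 to 4641 in FoxO-deficient and 3310 to 5294 in wild-type LSK cells. Erythroid markers, 6 of 7, summed to 3239 to 3288 in FoxO-deficient and 4547 to 4721 in wild-type myeloid progenitors, and to 143 to 183 in FoxO-deficient and 273 to 502 in wild-type LSK cells, with the globin gene Hba-a1 at background on all 3 arrays of 3 groups. Basophil and mast cell markers, 4 of 5, summed to 810 to 854 and 490 to 585 in deficient and wild-type myeloid progenitors, and to 226 to 275 and 55.6 to 171 in deficient and wild-type LSK cells. Endothelial markers, 6 of 6, which matter because Erg, Mecom and Prdm16 are also active in vessel walls, summed to 64.7 to 97.2 and 56.5 to 85.1 in deficient and wild-type myeloid progenitors, and to 214 to 224 and 165 to 283 in deficient and wild-type LSK cells. Emcn, a surface mucin of endothelial and stem cells, alone averaged 145 and 135 in deficient and wild-type LSK cells. Cdh5 was at background on all 3 wild-type LSK arrays. The LSK sums are therefore no measure of vessel cells alone. Megakaryocyte markers, 6 of 6, summed to 277 to 336 and 401 to 441 in deficient and wild-type myeloid progenitors and to 366 to 404 and 206 to 361 in deficient and wild-type LSK cells. Stromal markers, 5 of 5, summed to 33.8 to 46.2 and 28.9 to 31.0, and then to 35.8 to 52.9 and 78.1 to 206, in the same order. At most 3 of these 5 were above background on any array, and Lepr was at background on all of them. In wild-type LSK cells Cxcl12, Lepr and Dcn were at background on all 3 arrays. B cell markers, 4 of 5, summed to 124 to 164 and 63.8 to 92.3 in deficient and wild-type myeloid progenitors and to 94.7 to 115 and 52.6 to 136 in deficient and wild-type LSK cells, with Pax5, the B cell identity factor, at background on all arrays. At most 2 of these 4 were above background on any array. In wild-type myeloid progenitors Cd79a, Ms4a1 and Pax5 were at background on all 3 arrays, and in deficient ones Ms4a1 and Pax5 were. The endothelial sums overlapped between genotypes in both cell types, whereas the erythroid, megakaryocyte, stromal and basophil and mast cell sums did not overlap in either. The wild-type LSK sums include array 2, and the megakaryocyte sums in LSK cells were barely apart (366 or more against 361 or less). In myeloid progenitors alone, the sums of B cell, granulocyte-monocyte progenitor, and LSK and stem cell surface markers did not overlap either. These last sums were 1442 to 1559 in deficient and 1280 to 1413 in wild-type myeloid progenitors. Of the single markers with a tested probe set, Tek, an angiopoietin receptor of stem and endothelial cells, was called lower in both deficient cell types, at 42.0 and 90.7 in deficient and wild-type myeloid progenitors (-1.11 ± 0.18, adjusted p = 0.0165) and 191 and 466 in deficient and wild-type LSK cells (-1.29 ± 0.18, adjusted p = 0.0363). Mcpt8, a basophil protease, was called higher in deficient LSK cells, at 149 against 29.3 in wild-type LSK cells (2.34 ± 0.23, adjusted p = 0.00447). These 3 calls held without array 2. Counting them, that fit called 3 of 4 tested basophil and mast cell markers in LSK cells (0.512% of all tested probe sets). It also called 1 LSK and stem cell surface, 1 granulocyte-monocyte progenitor, 1 erythroid and 1 megakaryocyte marker there. In myeloid progenitors (6.23%) it called 2 markers each of the LSK and stem cell surface, granulocyte-monocyte progenitor, erythroid, and basophil and mast cell lists. The megakaryocyte and B cell lists had 1 call each there. The part of these shifts in the values of Mllt3, Erg, Meis1 and Ndn was not tested.

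Other regulators of stem cells were followed to place the 9 genes. Of 25 such genes 24 had a tested probe set, and limma called 0 for FoxO deficiency in either cell type. An unadjusted p under 0.05 was held by 3 in myeloid progenitors and 4 in LSK cells (12.2% and 10.5% of all tested probe sets). In the wild-type cell type comparison 8 were lower and 1 higher in myeloid progenitors (7.59% of all tested probe sets lower, 14.5% in either direction). The largest were Mycn, a Myc family factor, with 66.2 in myeloid progenitors and 512 in LSK cells (-2.95 ± 0.26, adjusted p = 1.17e-04), the zinc finger gene Zfp521 (-2.11 ± 0.35), the homeobox gene Hoxa9 (-1.86 ± 0.25) and the RNA-binding gene Msi2 (-1.38 ± 0.32), and the gene that was higher was Gfi1b, a repressor of erythroid and megakaryocytic cells (1.82 ± 0.23, adjusted p = 8.56e-04). Mycn averaged 136 in FoxO-deficient and 66.2 in wild-type myeloid progenitors, and 339.8 in FoxO-deficient and 512 in wild-type LSK cells. These changes, 1.03 ± 0.26 and -0.59 ± 0.26, were called without array 2 only (adjusted p = 0.00364 and 0.0467, against 0.104 and 0.478 with all arrays). Lyl1 and Tal1, related helix-loop-helix factors, were also called in myeloid progenitors without array 2 (adjusted p = 0.0456 and 0.0329, against 0.206 and 0.477 with all arrays, where their changes were 0.56 ± 0.18 and -0.62 ± 0.31). Without array 2, 6.23% of all tested probe sets were called in myeloid progenitors and 0.512% in LSK cells. The opposite signs of Mycn, positive in myeloid progenitors and negative in LSK cells, were also those of Lyl1 (-0.63 ± 0.18 in LSK cells), Zfp521 (0.28 ± 0.35 and -0.62 ± 0.35), the leucine zipper gene Nfe2 (0.34 ± 0.18 and -0.36 ± 0.18) and, with LSK changes nearer 0, Hoxa9 (-0.07) and the histone methyltransferase gene Ezh1 (-0.11), none of them called with all arrays. Reverse signs, negative in myeloid progenitors and positive in LSK cells, were those of Ldb1 (-0.43 and 1.24), Nkx2-3 (-0.43 and 0.71) and Gata2 (-0.33 and 0.05). Of these, none was called for FoxO deficiency with or without array 2. The difference between the effects of Lyl1 was -1.19 ± 0.25, and it was called without array 2 only (adjusted p = 0.0309, against 0.0860 with all arrays), as was that of Mycn (-1.63 ± 0.37, adjusted p = 0.00229 without and 0.110 with all arrays).

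Among family relatives of the 9 genes, 29 of 30 were tested and limma called 0 for FoxO deficiency in either cell type. An unadjusted p under 0.05 was held by 3 in each (12.2% of all tested probe sets in myeloid progenitors and 10.5% in LSK cells). In the wild-type cell type comparison 6 were lower and 2 higher in myeloid progenitors (7.59% of all tested probe sets lower, 14.5% in either direction). The lower ones were Maged1, a MAGE relative of Ndn, with 10.8 in myeloid progenitors and 86.6 in LSK cells (adjusted p = 0.00236), Prdm2, a relative of Mecom and Prdm16, with 189 and 377 in the same order (adjusted p = 0.0134), Elk3 and Etv3, ETS repressors (-1.26 ± 0.22 and -1.23 ± 0.15), Ets1, an ETS activator (-0.86 ± 0.22), and Dbp, a PAR relative of Hlf (-1.15 ± 0.29). The higher ones were Gata1, the erythroid GATA factor (2.79 ± 0.52, adjusted p = 0.00653), and the ETS gene Gabpa (1.11 ± 0.32, adjusted p = 0.0444). Of 19 partner genes 16 were tested and limma called 0 for FoxO deficiency in either cell type. An unadjusted p under 0.05 was held by 2 in myeloid progenitors and 3 in LSK cells (12.2% and 10.5% of all tested probe sets). Between the wild-type cell types 3 were lower and 1 higher in myeloid progenitors (7.59% of all tested probe sets lower, 14.5% in either direction). These were Hoxa9 and Pbx3, which bind DNA with Meis1 (-1.86 ± 0.25 and -1.03 ± 0.19), and Aff4 and Ell2 of the elongation complex in which Mllt3 works (-0.91 ± 0.17 and 1.30 ± 0.15). Of these relatives and partners, 3 were called lower in deficient myeloid progenitors without array 2 and not with all arrays. Over all tested probe sets, 6.23% were called in that comparison without array 2, in either direction. Gata1 averaged 405 in FoxO-deficient and 722 in wild-type myeloid progenitors (-0.83 ± 0.52, adjusted p = 0.608, and 0.0122 without array 2). Pbx3 averaged 66.7 and 107 in the same order (-0.68 ± 0.19, adjusted p = 0.132, and 0.0281 without array 2), and Ell2 345 and 556 (-0.69 ± 0.15, adjusted p = 0.0632, and 0.00802 without array 2).

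The genes whose pattern was nearest to each of the 9 were sought among 11771 genes by the root mean square difference of the centred log2 values over the 12 arrays, which share the same RNA samples. For Prdm16 the nearest was Emcn, an endothelial and stem cell surface mucin (0.16), which was also nearest without array 2, as were Gimap8 for Ndn and Gimap3 for Gata3. For Mllt3 they were Chaserr and Pbx3 (0.20 each), for Meis1 Serpinb6a and Hmgn3 (0.24 and 0.25), and for Erg Zbtb4 and Cyp2j9 (0.33 and 0.34). For Mecom they were Stxbp4 and Nfatc2 (0.30 and 0.34), for Hlf Cadps2 and Tnfrsf13c (0.30 each), for Ndn Gimap8 and Edar (0.44 and 0.61), and for Gata3 Gimap3 and Eppk1 (0.56 and 0.60). The nearest genes of Etv6, Smg1 and Kbtbd2 (0.15 each), had the low value of array 2 in common with it and ranked at 77 and 94 without that array. Of the others named, Chaserr and Pbx3 ranked at 13 and 15 without array 2, and the rest between 2 and 8. Among the 9 genes themselves Mecom and Hlf were nearest to each other (0.38), then Mecom and Prdm16 (0.45), and Meis1 and Erg (0.54).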

How the data were processed

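The deposited values are intensities, 1 per probe set and array, on a linear scale; how the authors summarised probes is unstated, and per the labels' protocols RNA was amplified and labelled with the NuGEN Ovation system. Deposited intensity plus 0.6, the 10th percentile of all values, was converted to log2 and quantile normalized, and fold changes refer to that scale. Probe sets above the 40th percentile of their array on at least 3 arrays were kept. All 12 arrays entered 1 limma fit (version 3.58.1 under R 4.3.3; lmFit, eBayes, two-sided) that gives each group its mean and leaves 8 residual degrees of freedom. Adjustment ran over all 31779 probe sets. The script was tested on simulated data. Genes were named from the platform annotation, updated through a RefSeq table of GRCm38.p6. All 9 genes are named, with their dim or further probe sets summarised. Regulators, relatives and partners are named if called, up to 5 by size, and marker lists are given as sums with the markers called for FoxO deficiency. Marker calls without array 2 are given as counts. Mycn, Lyl1, Tal1, Gata1, Pbx3 and Ell2 were added for calls without array 2, and Zfp521, Nfe2, Hoxa9, Ezh1, Ldb1, Nkx2-3 and Gata2 for their signs, after their values were seen. The genes and lists were chosen with earlier results of these data known. The number of arrays limits the precision. Alternatives were each array left out, another offset, scaling, other filters, only the groups compared, array weights and 1 probe set per gene.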

Additional observations from a re-analysis of the deposited data

Results flagged for a closer look

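Erg, on probe set 1425370_a_at, and Meis1, on probe set 1443260_at, drew attention because every deficient array lay below the wild-type arrays in LSK cells and above them in myeloid progenitors. This pattern was held by 321 of the 31779 tested probe sets (1.01%), and the reverse pattern by 410 (1.29%). The LSK effect minus the myeloid progenitor effect was -2.14 on the log2 scale for Erg and -1.32 for Meis1. The difference was tested within the limma fit and missed the threshold with all 12 arrays (adjusted p = 0.0663 and 0.0875). On the remaining probe sets of both genes the genotypes overlapped in both cell types with all 12 arrays.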

How the results depend on the processing

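Over the leave-outs of 1 array, the number of the 9 genes called on their brightest probe set ran from 0 to 0 for the LSK FoxO effect, 0 to 1 for the myeloid progenitor effect, 0 to 2 for their difference, 6 to 9 for the wild-type and 5 to 9 for the FoxO-deficient cell type difference. The number of probe sets called ran from 16 to 159, 230 to 1933, 89 to 681, 2829 to 7778 and 3060 to 9508 in the same order. A dimmer probe set of Mllt3, 1453622_s_at, was called in LSK cells without array 2 (adjusted p = 0.0249). The highest probe set counts were those without wild-type LSK array 2. With an offset of 32, 1 gene was called in LSK cells (Erg), 1 in myeloid progenitors (Mllt3) and 2 for the difference (Erg and Meis1). With a 60th percentile filter the counts were 1 and 2 for myeloid progenitors and the difference, with array weights 2 and 2, and with 1 probe set per gene 1 for the difference. Probe sets called in LSK cells were 47 in the reported fit, 320 with the offset of 32, 28 with scaling, 18 without a filter, 157 with array weights and, by limma on the 2 LSK groups alone, 0, where 2060 had an unadjusted p under 0.05. In myeloid progenitors they were 464, against 971 with the offset, 282 without a filter, 819 with the 60th percentile, 1962 with weights and 253 with 1 probe set per gene. For the difference they were 187, against 456, 121, 385, 712 and 118 in that order. For the wild-type cell type difference they were 4619, against 1261 with only the groups compared, 7103 with weights and 2942 with 1 probe set per gene, and for the FoxO-deficient one 4655, against 8392, 10089 and 2695 in that order. The cause was not tested.

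Small changes turned sign. With array weights these were Meis1 1450992_a_at in LSK cells (3.24e-05), Prdm16 1440745_at in LSK cells (-0.23), Gata3 in LSK cells (-0.028, and -0.0070 with scaling), and the wild-type cell type differences of Mllt3 1453622_s_at (-0.42, and -0.018 with the offset of 32) and Etv6 1434880_at (-0.63). Leaving out 1 array turned the LSK effect of Mecom (-0.14 to 0.034), Meis1 1450992_a_at (-0.48 to 0.033), Meis1 1459423_at (-0.71 to 0.28), Mllt3 1431890_a_at (-0.36 to 0.11), Erg 1440244_at (-0.16 to 0.38), Etv6 1423401_at (-0.022 to 0.46), Prdm16 1440745_at (-0.23 to 0.34) and Gata3 (-0.082 to 0.21), none of them called. It turned the myeloid progenitor effect of Hlf (-0.14 to 0.17), Erg 1440244_at (-0.019 to 0.38), Prdm16 (-0.41 to 0.039), Ndn (-0.72 to 0.12) and Gata3 (-0.69 to 1.07), and the wild-type cell type difference of Mllt3 1453622_s_at (-0.48 to 0.29) and Etv6 1434880_at (-0.69 to 0.56). No paired analysis was possible because the array numbers in the labels are not shared between groups.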
